A study of Mus musculus with 12 samples.

Results

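The 4 Hox clusters of the mouse were followed across 12 gene arrays of fibroblasts, cells under reprogramming and pluripotent lines. The members were all genes whose annotated symbol is Hoxa, Hoxb, Hoxc or Hoxd followed by a paralogue number, without antisense transcripts. This gave 37 genes out of 19938 genes with a probe set of a single symbol. The probe set that names Hoxb8 also names Hoxb7 and is described apart. Mouse embryonic fibroblasts (MEF) gave 3 arrays, of MBD3+/+ (WT), MBD3flox/- (flox/-) and MBD3-/- (-/-) genotype. MEF under doxycycline (DOX), which switches on a transgene that drives OSKM (Oct4, Sox2, Klf4, Myc), made up 5 arrays: WT at days 4, 8 and 11 and flox/- at days 4 and 8. The pluripotent group of 4 arrays held a WT and a flox/- line of induced pluripotent stem cells (iPSC), a -/- embryonic stem cell (ESC) line and the WT ESC line V6.5. The WT and flox/- MEF, DOX and iPSC samples carry the inducible OSKM transgene, and no such transgene is named for the -/- MEF or for the 2 ESC lines. Mbd3 encodes a subunit of the NuRD chromatin remodelling complex, and a flox/- cell has 1 intact allele of it.

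Each array is a different combination of genotype and stage, so the arrays of a state vary in genotype or day, and nothing in the labels says that they came from separate animals or cultures. P-values therefore measure the spread between these arrays. All cells were expanded on irradiated DR4 fibroblasts as feeders, whose RNA may be part of any sample, and in such bulk RNA fewer fibroblasts cannot be told apart from less RNA per cell. Of the WT arrays, those of day 8 and of ESC come from a series deposited earlier, and the WT day 8 array has 4 days in its source name and 8 days in its title and stage. Mbd3 itself read 8.73 to 9.67 on the log2 scale in WT and flox/- cells, 8.15 in the -/- MEF and 6.73 in the -/- ESC. The mean log2 signal of 8 pluripotency genes was 4.98 to 5.20 in MEF and 11.7 to 11.9 in the pluripotent lines. That of 10 fibroblast genes was 11.5 to 11.7 in MEF and 6.19 to 9.12 in the pluripotent lines. The WT iPSC array was the highest of these lines and so kept part of the fibroblast signal. All values below are log2 signals, where a difference of 1 is a 2-fold change. Levels of different genes were not compared, because each probe set has its own brightness.

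Hox genes encode homeodomain transcription factors that give cells their position along the head to tail axis and along the limbs. They lie in clusters in the order in which they are used: genes with low paralogue numbers act early and towards the head, and genes with high numbers act late, towards the tail and in the distal limb. Fibroblasts keep a Hox pattern of the body site they came from long after the embryo is formed, whereas in pluripotent cells most of these genes are held silent by Polycomb chromatin. In the GRCm38.p6 build the Hoxa members span chr6:52162417-52260880, the Hoxb members chr11:96194316-96368254, the Hoxc members chr15:102921131-103036856 and the Hoxd members chr2:74668225-74765142. The members are 10 Hoxa, 9 Hoxb, 9 Hoxc and 9 Hoxd genes.

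Many Hox genes start in CpG islands, and start windows were at hand for 5 of the members called lower under DOX. For these 5 genes the 250 bases before a RefSeq start are shown, 5′ to 3′ on the strand of the gene with each CpG in capitals. The Hoxd12 window is chr2:74674763-74675012, the Hoxd11 window chr2:74679308-74679557 and the Hoxd10 window chr2:74691641-74691890, all on the plus strand. The Hoxa13 window is chr6:52260881-52261130 and the Hoxa10 window chr6:52240855-52241104, both on the minus strand. The Hoxd10 window lies before a start site inside the annotated gene span, and the others directly before the gene.
Hoxd12: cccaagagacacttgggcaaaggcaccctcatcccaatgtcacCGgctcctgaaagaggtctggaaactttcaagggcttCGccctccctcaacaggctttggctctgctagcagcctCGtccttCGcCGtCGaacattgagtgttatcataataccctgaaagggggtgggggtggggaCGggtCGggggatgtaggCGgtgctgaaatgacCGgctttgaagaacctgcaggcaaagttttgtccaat
Hoxd11: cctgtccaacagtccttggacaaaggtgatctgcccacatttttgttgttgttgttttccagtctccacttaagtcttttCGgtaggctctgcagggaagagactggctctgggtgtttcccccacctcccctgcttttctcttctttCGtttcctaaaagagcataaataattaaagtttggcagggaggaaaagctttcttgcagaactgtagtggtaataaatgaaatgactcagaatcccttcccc
Hoxd10: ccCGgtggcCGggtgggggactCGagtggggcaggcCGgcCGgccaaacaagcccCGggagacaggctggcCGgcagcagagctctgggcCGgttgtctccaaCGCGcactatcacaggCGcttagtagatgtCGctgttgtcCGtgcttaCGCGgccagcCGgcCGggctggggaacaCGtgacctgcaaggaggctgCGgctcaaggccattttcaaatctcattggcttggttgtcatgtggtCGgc
Hoxa13: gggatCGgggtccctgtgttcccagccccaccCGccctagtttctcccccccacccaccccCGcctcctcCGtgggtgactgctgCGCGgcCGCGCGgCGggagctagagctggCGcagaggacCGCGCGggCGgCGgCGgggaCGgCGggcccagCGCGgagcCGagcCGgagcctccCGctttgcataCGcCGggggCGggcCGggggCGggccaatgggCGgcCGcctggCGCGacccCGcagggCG
Hoxa10: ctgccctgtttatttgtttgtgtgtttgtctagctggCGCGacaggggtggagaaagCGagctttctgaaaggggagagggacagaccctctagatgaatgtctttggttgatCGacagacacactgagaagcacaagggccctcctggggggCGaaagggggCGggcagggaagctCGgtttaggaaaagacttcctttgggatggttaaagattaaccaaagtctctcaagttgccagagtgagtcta

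These windows hold 10, 2, 20, 35 and 7 CpG in the order shown. Hoxd11 and Hoxa10 each have a further window inside the gene span, with 20 CpG in both. Their low counts of 2 and 7 thus belong to the window shown and not to the gene as a whole. RefSeq start site windows were at hand for 21 members, 23 windows in all, and their median CpG count was 13, against 6 over all 32851 windows of the table. Their median GC content was 59.2%, against 52.4%. The E-box CACGTG, the preferred site of Myc, was found in 4 of the 23 windows (17.4%, against 6.02% of all windows), among them those of Hoxd10 and Hoxd13. The Cdx-type word TTTATG occurred in 4 windows (17.4% against 10.8%), the Hox-Pbx word TGATTNAT in 2 (8.7% against 2.82%), TATAAA in 3 (13% against 12.4%) and the octamer ATGCAAAT in 0 (against 1.6%). Both strands were searched, each motif alone, so that matches of different motifs may overlap. A match is a run of letters and not a measured site.

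Most Hox genes were above background in the fibroblasts, and many were so on the other arrays too. A member was counted as above background where its signal passed the 95th percentile of 1027 olfactory receptor genes of the same array, a level of 5.09 to 5.23. In all 3 MEF arrays 34 of the 37 members were above it. Hoxc11 and Hoxd1 were above it in none of the MEF arrays. The number of members above background was 34 to 35 per MEF array, 27 to 33 per DOX array and 23 to 32 per pluripotent array. In all 5 DOX arrays 24 members were above background, and in all 4 pluripotent arrays 23. At the stricter 99th percentile these last counts were 4 and 5. The MEF count at that cut and the share of all genes above background are not given here. The counts therefore do not set the Hox genes apart from other genes.

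The 3 MEF cultures did not carry the same pattern. The WT MEF were the highest in Hoxa5, a gene of neck and lung patterning, at 9.80 against 8.37 in flox/- and 8.53 in -/- MEF. Hoxa6, its neighbour in the cluster, read 9.34, 7.52 and 7.48 in the same order, and Hoxa3, which patterns the pharyngeal arches, 7.55, 6.22 and 6.22. Some Hoxd genes ran the other way, while Hoxd12 (6.33, 6.13 and 5.83) did not. Hoxd13, the gene of the digits, was at 7.97 in WT, 9.30 in flox/- and 9.65 in -/- MEF. Hoxd8 read 6.34, 7.99 and 8.69. From WT to flox/- MEF, 3 members were at least 2-fold lower (Hoxa3, Hoxa5 and Hoxa6, where 1.24% of all genes were) and 2 at least 2-fold higher (Hoxd8 and Hoxd13, against 1.57% of genes). From WT to -/- MEF the same 3 genes were at least 2-fold lower (2.8% of genes) and 4 were higher (Hoxc5, Hoxd4, Hoxd8 and Hoxd13, 2.06% of genes). Between flox/- and -/- MEF 0 members were lower (1.24% of genes) and 1 was higher, Hoxc5 (0.451% of genes). With 1 array on each side these differences have no replicate check, and genotype cannot be told apart from culture here. The mean log2 signal of 6 macrophage genes also differed between these arrays, at 10.8 in WT, 9.92 in flox/- and 7.57 in -/- MEF, and its part in the differences was not tested.

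**Figure D1:**
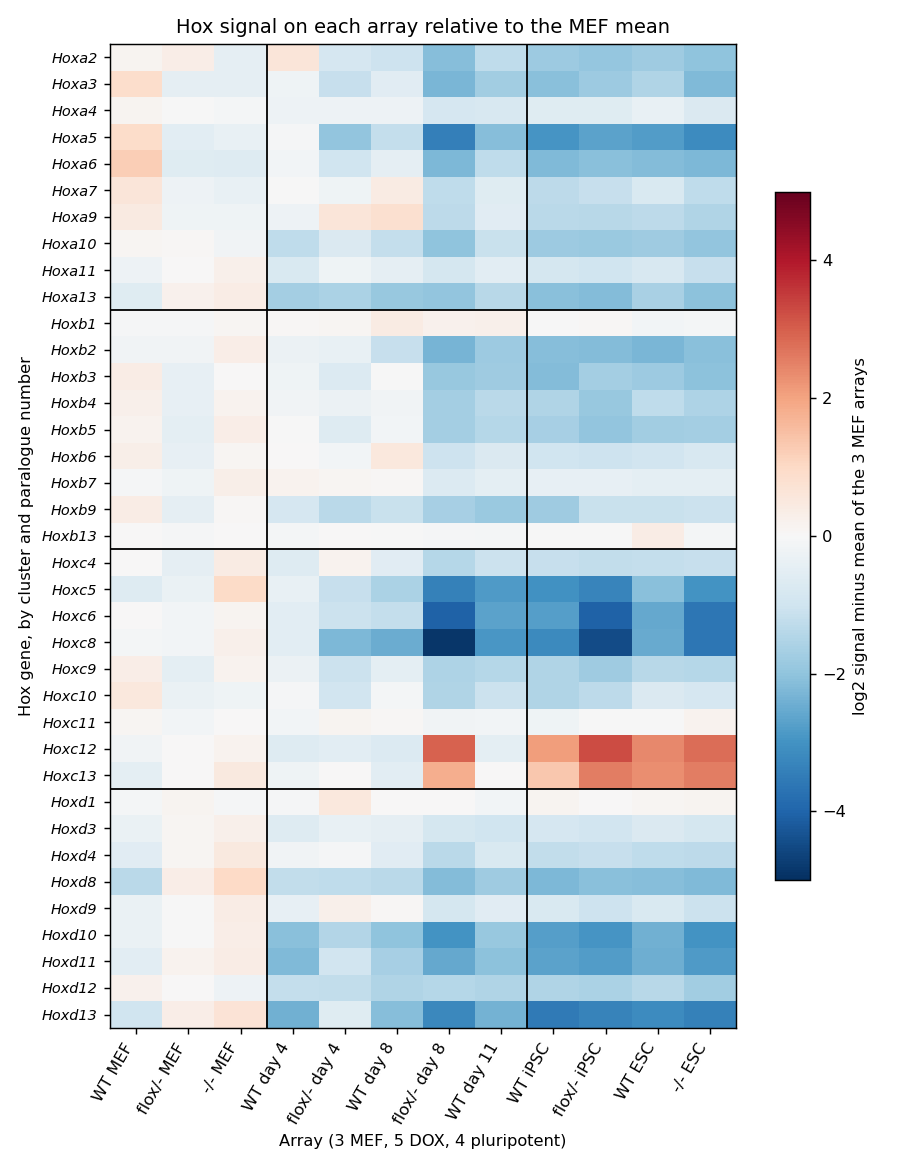
Log2 signal of the 37 Hox genes (rows, by cluster and paralogue number) on the 12 arrays (columns), as the difference from the mean of the 3 MEF arrays; blue is lower and red higher. Most rows turn blue towards flox/- day 8, WT day 11 and the pluripotent lines, and the rows of Hoxc12 and Hoxc13 turn red in flox/- day 8 and in the pluripotent lines.

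In the pluripotent lines nearly the whole fibroblast Hox pattern was down. Against the MEF arrays 31 of the 37 members were lower and 2 were higher at an adjusted p under 0.05 in limma with Benjamini-Hochberg adjustment over all genes, and 25 of those lower were so by at least 2-fold. Over all 19938 genes, 20.9% were called lower and 20.6% higher. The median difference of the members was -1.52, against -0.00057 for all genes. By cluster, 10 of 10 Hoxa, 7 of 9 Hoxb, 6 of 9 Hoxc and 8 of 9 Hoxd genes fell. By position, 9 of 11 members of paralogue groups 1 to 4, 10 of 10 of groups 5 to 8 and 12 of 16 of groups 9 to 13 fell. The 4 members not called were Hoxb1 (6.16 to 6.41 over these 7 arrays), which marks a hindbrain segment, Hoxb13 of the tail bud (5.18 to 5.65), Hoxc11 and Hoxd1, the last 2 at or below background.

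The largest falls were those of Hoxc8 in the Hoxc cluster and Hoxd13 in the Hoxd cluster. Hoxc8, a gene of the thoracic skeleton, read 10.56 in WT, 10.53 in flox/- and 10.93 in -/- MEF, and 7.51 in WT iPSC, 6.20 in flox/- iPSC, 7.07 in -/- ESC and 8.17 in WT ESC. It fell by 3.44 ± 0.43 (SE; adjusted p = 0.00077). All 4 pluripotent arrays lay below all MEF arrays, but were spread over nearly 2 units, lowest in flox/- iPSC and highest in WT ESC. Hoxc6, also thoracic, read 9.46, 9.30 and 9.59 in the MEF and 6.70, 5.41, 5.83 and 6.89 in the pluripotent arrays in the same order, and fell by 3.24 ± 0.36 (adjusted p = 0.00048). Hoxc5 read 8.32, 8.64 and 9.94 in the MEF and 5.95, 5.66, 6.0 and 6.86 in the pluripotent arrays, and fell by 2.85 ± 0.44 (adjusted p = 0.0020). The flox/- iPSC were thus lowest and the WT ESC highest among the pluripotent lines in all 3 genes. The mean of the 10 fibroblast genes was also lowest in flox/- iPSC, at 6.19, and stood at 9.12 in WT iPSC, 7.80 in -/- ESC and 8.04 in WT ESC. Its part in the Hox signal left in these lines was not tested.

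The posterior Hoxd genes, which pattern the distal limb and the rear trunk, read similar levels in all pluripotent lines, close to background. The background level of these arrays was 5.13 to 5.18, and Hoxd10 was below it in flox/- iPSC and -/- ESC. Signals this close to background limit the differences between lines that can be measured. Hoxd13 read 5.43 in WT iPSC, 5.62 in flox/- iPSC, 5.60 in -/- ESC and 5.82 in WT ESC, and fell by 3.36 ± 0.38 (adjusted p = 0.00049). Hoxd10, a gene of the lumbar region, went from 7.74, 8.04 and 8.41 in WT, flox/- and -/- MEF to 5.30, 5.13, 5.07 and 5.66, and fell by 2.78 ± 0.20 (adjusted p = 9.1e-05). Hoxd11, which patterns the sacrum and the forearm, went from 7.80, 8.50 and 8.70 to 5.65, 5.53, 5.50 and 5.90, and fell by 2.69 ± 0.22 (adjusted p = 0.00015). The groups did not overlap for these 3 genes. Hoxd12, Hoxd4 and Hoxd3 were not above background in any pluripotent array, so that only bounds hold: at least 1.91-fold lower for Hoxd12 (adjusted p = 0.00019), 2.09-fold for Hoxd4 (adjusted p = 0.0045) and 1.61-fold for Hoxd3 (adjusted p = 0.0024). These bounds set the MEF mean against the mean background level of the pluripotent arrays.

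In the Hoxa cluster the falls reached from the head end to the tail end. Hoxa5 went from 9.80, 8.37 and 8.53 in WT, flox/- and -/- MEF to 5.94 in WT iPSC, 6.23 in flox/- iPSC, 5.76 in -/- ESC and 6.12 in WT ESC, and fell by 2.89 ± 0.34 (adjusted p = 0.00062). Hoxa6 went to 5.89, 6.04, 5.85 and 5.94 and fell by 2.19 ± 0.44 (adjusted p = 0.0065). The 4 pluripotent arrays thus lay within 0.5 units of each other in both genes. Hoxa10, which sets the lumbar identity and acts in the uterus, read 8.84, 8.82 and 8.59 in the MEF and 6.95, 6.89, 6.78 and 6.97 in the pluripotent arrays, and fell by 1.85 ± 0.09 (adjusted p = 2.9e-05). Hoxa13, needed in digits and the urogenital tract, went from 6.64, 7.45 and 7.61 to 5.12, 5.05, 5.19 and 5.63, and fell by 1.99 ± 0.26 (adjusted p = 0.00088). Hoxa4 and Hoxa11 were called with falls of under 2-fold.

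In the Hoxb cluster 7 of 9 genes fell. Hoxb2, a hindbrain gene, went from 8.39, 8.36 and 8.90 in WT, flox/- and -/- MEF to 6.41 in WT iPSC, 6.38 in flox/- iPSC, 6.47 in -/- ESC and 6.25 in WT ESC, and fell by 2.17 ± 0.15 (adjusted p = 7.0e-05). Hoxb3 went from 8.84, 8.08 and 8.50 to 6.29, 6.77, 6.41 and 6.65 and fell by 1.94 ± 0.20 (adjusted p = 0.00034). Hoxb9, a gene of the rib cage, went from 8.41, 7.61 and 8.11 to 6.25, 6.92, 6.96 and 6.95 and fell by 1.27 ± 0.25 (adjusted p = 0.0054). None of the groups overlapped, and for Hoxb9 the WT iPSC array was the low one of the 4. The median difference was -1.27 over the 9 Hoxb genes, -1.86 over the 10 Hoxa, -1.17 over the 9 Hoxc and -1.55 over the 9 Hoxd genes. The differences between clusters were not tested.

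**Figure D2:**
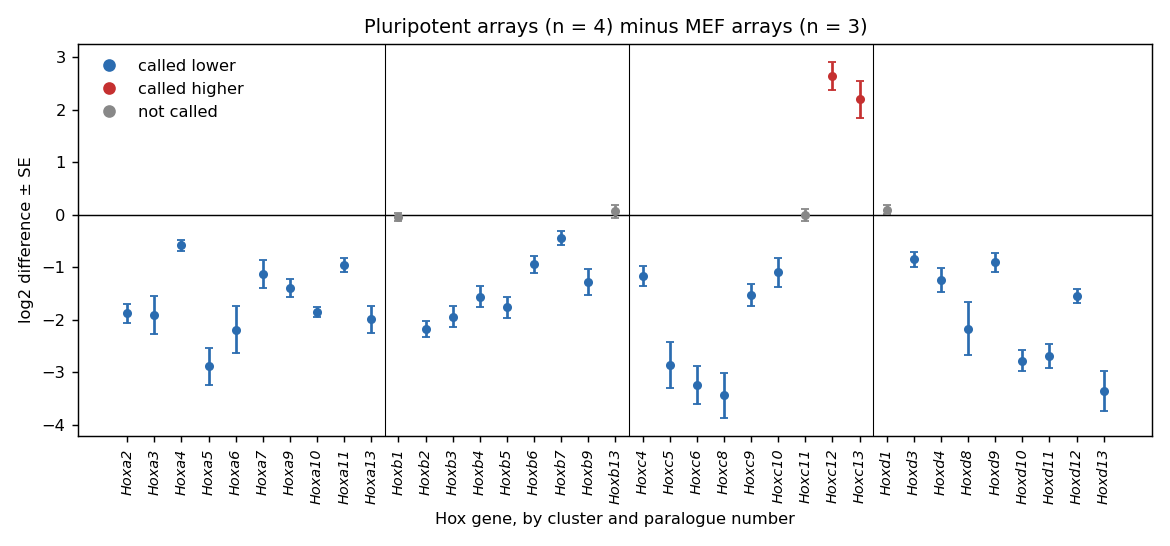
Log2 difference of each of the 37 Hox genes between the 4 pluripotent and the 3 MEF arrays, with its standard error from limma; blue points were called lower, red higher and grey not called. Of the points, 31 lie below 0 as calls, and Hoxc12 and Hoxc13 lie at 2.64 and 2.20.

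Hoxc12 and Hoxc13, neighbours at the tail end of the Hoxc cluster, ran against the rest; both were singled out after their values were seen. Hoxc12 (chr15:102936826-102938609) read 5.46 in WT, 5.65 in flox/- and 5.80 in -/- MEF. It read 7.73 in WT iPSC, 8.90 in flox/- iPSC, 8.44 in -/- ESC and 8.04 in WT ESC, a rise of 2.64 ± 0.27 (adjusted p = 0.00034). Hoxc13 (chr15:102921131-102928814), which acts in hair follicles and nails, went from 4.87, 5.35 and 5.82 to 6.71, 7.91, 7.90 and 7.67, a rise of 2.20 ± 0.35 (adjusted p = 0.0023). All 4 pluripotent arrays were above all MEF arrays in both genes. Under DOX the pair was low on 4 arrays: Hoxc12 read 5.01, 4.94 and 5.14 at WT days 4, 8 and 11 and 5.11 at flox/- day 4. At flox/- day 8 it read 8.59. Hoxc13 read 5.15, 4.84, 5.36 and 5.36 on the former 4 arrays and 7.16 at flox/- day 8. The flox/- day 8 array was thus at the level of the pluripotent lines, and the WT day 11 array was not. Hoxc11, the next gene in the cluster, stayed at or below background on all 12 arrays, and Hoxc10 (4.64 to 5.42 in the pluripotent arrays) fell. Over the same arrays the mean of the 8 pluripotency genes was 5.96, 5.93 and 11.0 at WT days 4, 8 and 11. It was 7.27 and 11.9 at flox/- days 4 and 8. The WT day 8 array was thus no higher in these genes than the WT day 4 array.

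**Figure D3:**
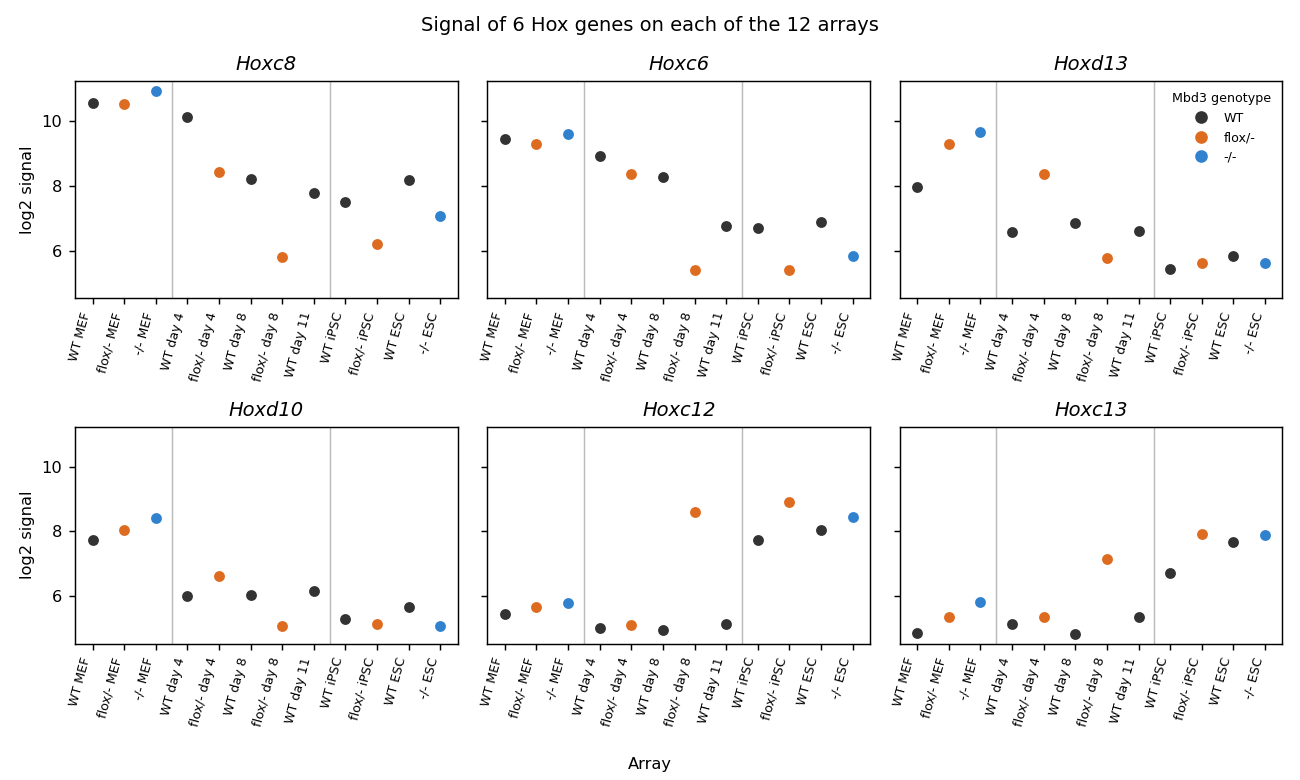
Log2 signal of 6 Hox genes on each of the 12 arrays, grouped as 3 MEF, 5 DOX and 4 pluripotent arrays by the vertical lines and coloured by Mbd3 genotype; each point is 1 array. Hoxc8, Hoxc6, Hoxd13 and Hoxd10 end low, and Hoxc12 and Hoxc13 are high only on the flox/- day 8 array and the 4 pluripotent arrays.

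Under DOX the members that passed the test were all of paralogue groups 9 to 13. Of the 37 members 6 were called lower and 0 higher against MEF (limma, adjusted p under 0.05), where 4.74% of all genes were lower and 3.66% higher. An unadjusted p under 0.05 was met by 17 members and by 5325 of the 19938 genes. These 6 were among the 16 members of groups 9 to 13, while 0 of 11 in groups 1 to 4 and 0 of 10 in groups 5 to 8 were called; the difference between the classes was not tested. The estimate was below 0 for 33 of the 37 members, with a median of -0.79 against 0.02 for all genes. Groups 5 to 8, with 0 calls, had a median difference of -1.29, and groups 9 to 13 one of -0.85. Hoxc8 had the largest estimate, a difference of -2.60 ± 0.84 (adjusted p = 0.096), and read 10.14, 8.21 and 7.78 at WT days 4, 8 and 11 and 8.42 and 5.81 at flox/- days 4 and 8. Left-out arrays changed the count of 6, given here with the share of all genes called either way. It was 1 without flox/- MEF (0.481%), 2 without -/- MEF (2.46%), 3 without WT day 11 (2.74%) and 4 without WT MEF (2.43%). With genotype as a block it was 1 (2.98%). In 1 fit over all 12 arrays it was 12 (17.6%), with Hoxc8, of groups 5 to 8, among them (adjusted p = 0.042).

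Of the 37 members 11 were lower on every DOX array than on any MEF array. These were the 6 called genes and 5 that were not called, Hoxa4, Hoxb2, Hoxc6, Hoxc8 and Hoxd3, all of groups 1 to 8. The share of all genes that were so is not given here, so no excess among Hox genes can be read from this count. Hoxd10 read 5.99, 6.04 and 6.15 at WT days 4, 8 and 11 and 6.61 and 5.07 at flox/- days 4 and 8, and fell by 2.09 ± 0.33 (adjusted p = 0.017). Hoxd11 read 6.14, 6.66 and 6.27 in WT and 7.39 and 5.77 in flox/- cells in the same order, and fell by 1.89 ± 0.38 (adjusted p = 0.030). Hoxa13 read 5.53, 5.33 and 5.85 in WT and 5.64 and 5.26 in flox/- cells, and fell by 1.71 ± 0.24 (adjusted p = 0.012). In these 3 genes the WT arrays of day 4 and day 11 lay close together, within 0.5 units. Hoxb9 read 7.20, 6.93 and 6.18 in WT and 6.68 and 6.37 in flox/- cells, and fell by 1.37 ± 0.27 (adjusted p = 0.030). Hoxa10 read 7.48, 7.55 and 7.62 in WT and 8.03 and 6.73 in flox/- cells, and fell by 1.27 ± 0.26 (adjusted p = 0.033). Hoxd12, a partner of Hoxd13 in the limb, went from 6.33, 6.13 and 5.83 in the MEF to 4.92, 4.58 and 4.59 in WT and 4.89 and 4.68 in flox/- cells. All 5 DOX values of Hoxd12 were below background, so it was at least 1.90-fold lower (adjusted p = 0.0059). Hoxd13 itself overlapped the MEF: it read 6.56, 6.86 and 6.60 at WT days 4, 8 and 11, 8.35 at flox/- day 4 and 5.76 at flox/- day 8, against 7.97 in WT MEF, a difference of -2.15 ± 0.61 (adjusted p = 0.071).

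At day 4 alone, Hoxd12 was the 1 member called against MEF, at least 1.89-fold lower over the 2 arrays (limma, adjusted p = 0.049). Of all genes 0.903% were called lower. An unadjusted p under 0.05 was met by 9 members and by 5300 of the 19938 genes, a similar share. Hoxd10, with a difference of -1.76 ± 0.28, had an adjusted p of 0.054 and Hoxa13, with -1.65 ± 0.32, one of 0.066. The estimate was below 0 for 32 of the 37 members, with a median of -0.50. This comparison rested on single arrays: without any one of the WT, flox/- and -/- MEF arrays 0 members and 0 genes in all were called. With genotype as a block both counts were again 0. On the deposited values 0 members were called, with 1.55% of all genes.

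In the WT cells the steps involved partly different members. From WT MEF to day 4, 9 members were at least 2-fold lower: Hoxa3, Hoxa6, Hoxa10, Hoxa13, Hoxb9, Hoxd10, Hoxd11, Hoxd12 and Hoxd13, against 4.72% of all genes. From day 4 to day 11 these were 13 members (3.76% of genes), namely Hoxa2, Hoxa3, Hoxa5, Hoxa6, Hoxb2, Hoxb3, Hoxb4, Hoxb5, Hoxb9, Hoxc5, Hoxc6, Hoxc8 and Hoxc9. From day 11 to WT iPSC only Hoxd13 was lower (3.99% of genes), while Hoxc12 and Hoxc13 were at least 2-fold higher (2.15% of genes). Split at the reused WT array of day 8, 4 members were lower from day 4 to day 8 (Hoxa2, Hoxa5, Hoxc5 and Hoxc8, 6.52% of genes) and 9 from day 8 to day 11 (7.7% of genes). From day 4 to day 8 Hoxa9 was higher, from 7.45 to 8.48, where 7.21% of genes were. Each of these steps has 1 array on each side and no replicate check.

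The flox/- cells lost most of the pattern between day 4 and day 8. From flox/- MEF to day 4, 8 members were at least 2-fold lower (Hoxa2, Hoxa5, Hoxa13, Hoxc8, Hoxd8, Hoxd10, Hoxd11 and Hoxd12), against 10.2% of all genes. From day 4 to day 8, 20 members were lower (7.89% of genes), and Hoxc12 and Hoxc13 were higher (5.01% of genes). Of those 20, Hoxa2, Hoxa5, Hoxc8, Hoxd10 and Hoxd11 had been lower at the step before as well. From day 8 to flox/- iPSC 0 members were lower (0.592% of genes), and the member with the largest fall was Hoxb5, by 0.26. Between the genotypes at day 4, Hoxa2, Hoxa5 and Hoxc8 were at least 2-fold lower in flox/- than in WT cells (5.34% of genes), and Hoxd11 and Hoxd13 higher (3.27% of genes). The flox/- day 8 array lay below the WT day 11 array in Hoxa5, Hoxc6, Hoxc8 and Hoxd10 (6.9% of genes) and above it in Hoxc12 and Hoxc13 (2.73% of genes).

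How far each DOX array had come was expressed as the share of the log2 distance from the MEF to the iPSC of the same genotype, over the members at least 2-fold lower in those iPSC, 24 in each genotype. The MEF and iPSC values that chose these genes are also in the share, so it is a description, and values close to background compress it. At WT day 4 the median was 33.2%, against 39.0% over the 2498 genes chosen in the same way. At WT day 8 it was 48.4% against 63.1%, and at WT day 11 81.9% against 73.7%. At flox/- day 4 the median was 32.9%, against 70.6% over 2616 genes, and at flox/- day 8 it was 101% against 102%. The 24 members are not the same in both genotypes, and over the 19 that they share the median was 34.4% at WT day 4 and 37.4% at flox/- day 4. Over members at least 4-fold lower it was 33.9% (12 genes) and 49.0% (10 genes), against 39.1% and 71.6% over all such genes.

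By paralogue number, groups 9 to 13 were ahead at WT day 4, with a median of 63.9% over 10 genes, against 22.9% over 6 genes of groups 1 to 4 and 19.7% over 8 genes of groups 5 to 8. Within groups 9 to 13, Hoxd11 reached 76.9% and Hoxa13 73.6%, while Hoxa9 was at 37.8%, Hoxc9 at 34.4% and Hoxc10 at 30.3%. The Hoxd cluster stood at 74.3%, but its 4 genes here are Hoxd10 to Hoxd13, so that cluster and position cannot be told apart. At flox/- day 4, over partly other genes, the classes stood at 39.2%, 23.2% and 28.3%. By WT day 11 the order had turned, with 68.1% in groups 9 to 13, 86.7% in groups 1 to 4 and 84.3% in groups 5 to 8. At WT day 8 the medians were 60.5%, 49.6% and 41.5%. Hoxa9, a gene of the blood-forming and axial programmes, went the other way on 2 arrays, at -19.0% at WT day 8 and -69.9% at flox/- day 4: it read 8.13 in WT MEF and 8.48 at WT day 8, and 7.47 in flox/- MEF and 8.28 at flox/- day 4.

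**Figure D4:**
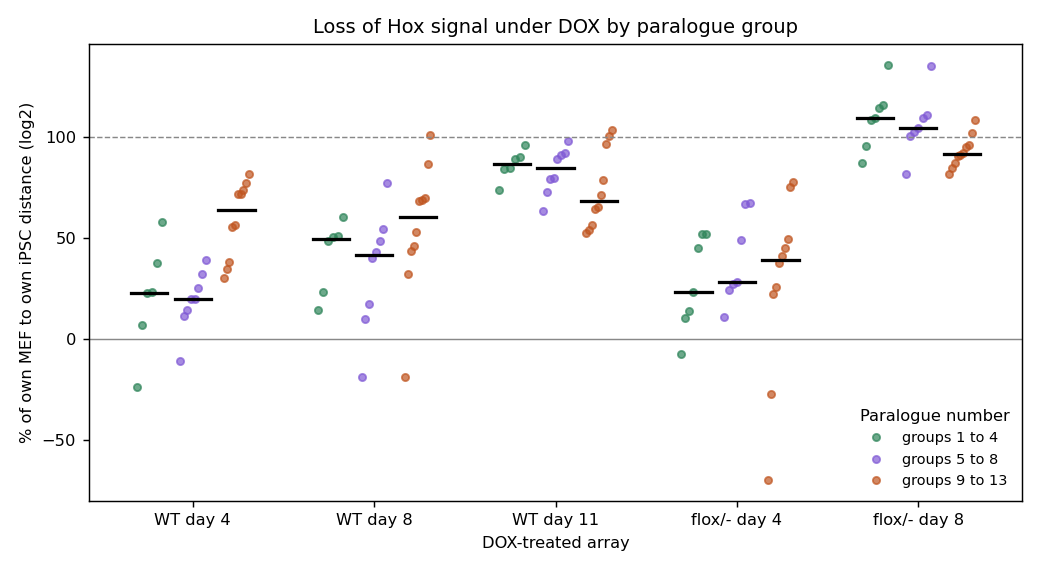
Share of the log2 distance from MEF to iPSC of the same genotype covered on each of the 5 DOX arrays; each point is 1 Hox gene at least 2-fold lower in iPSC, coloured by paralogue group, and black bars are medians. At WT day 4 the bar of groups 9 to 13 stands at 63.9% and the others at 22.9% and 19.7%, and at flox/- day 8 all bars are near 100%.

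The fibroblast genes ran apart from the Hox genes on some DOX arrays and close to them on others. The mean log2 signal of the 10 markers was 10.7, 7.52 and 9.81 at WT days 4, 8 and 11 and 8.65 and 6.13 at flox/- days 4 and 8. At WT day 8 the 8 markers that were at least 2-fold lower in WT iPSC had covered a median of 153% of the way, while the Hox genes had covered 48.4%. At such a share the array lay below WT iPSC, whose mean over the 10 markers was 9.12. Outside the 8, Dcn read 12.5 at WT day 8 and 11.5 in WT MEF, while Lum read 4.80 and 9.62. At WT day 4 the marker share was 28.1%, and at flox/- day 4, over all 10 markers, it was 54.4%. The low marker level at WT day 8 stood beside Hoxb3 at 8.47 and Hoxc6 at 8.28, of which WT MEF had 8.84 and 9.46. These 2 genes had covered 14.4% and 42.9% of the way, and the members were split on this array. Past 50% of the way were 11 of the 24 members used, among them Hoxc8 at 77.1% and Hoxa13 at 86.4%. The 4 epithelial genes (Cdh1, Epcam, Krt8 and Krt18) had a mean of 11.0 on the WT day 8 array and 11.2 at WT day 11, against 5.93 to 6.30 in MEF.

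Between pluripotent lines and DOX arrays, 0 of the 37 members were called in limma, where 0.00502% of all genes were called higher. An unadjusted p under 0.05 was met by 19 members and by 2577 of the 19938 genes. Without the flox/- day 8 array 5.52% of all genes and 9 members were called, 7 of them lower in the pluripotent lines. Among these, Hoxa10 was lower by a difference of -0.77 (adjusted p = 0.021), Hoxa6 by -1.47 (adjusted p = 0.021) and Hoxd10 by -0.91 (adjusted p = 0.036), and Hoxc12 and Hoxc13 were higher by 3.22 (adjusted p = 0.0066) and 2.37 (adjusted p = 0.010). All comparisons above share arrays, so that the MEF enter both the DOX and the pluripotent contrast.

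No member was called between the genotypes. Between flox/- and WT over the 8 arrays of MEF, day 4, day 8 and iPSC, with stage as a block, 0 members and 0% of all genes were called by limma, and 7 members and 1256 genes had an unadjusted p under 0.05. The largest differences of those 7 were Hoxc8 at -1.36 ± 0.41 and Hoxa5 at -1.31 ± 0.46, lower in flox/- cells, each with an adjusted p of 0.76. Between -/- and WT over MEF and pluripotent arrays 0 members and 0% of genes were called, and 2 members and 1730 genes had an unadjusted p under 0.05: Hoxc13, at 0.83 ± 0.31 higher (adjusted p = 0.57), and Hoxd12, at -0.37 ± 0.10 (adjusted p = 0.53).

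Other transcripts inside the clusters were measured as well. The antisense transcript Hoxaas2 read 6.95, 6.92 and 6.57 in WT, flox/- and -/- MEF and 5.18 to 5.59 in the pluripotent lines, and fell by 1.41 ± 0.14 (adjusted p = 0.00035). It was called lower under DOX as well, with a difference of -0.98 (adjusted p = 0.037). Whether the labelling keeps the strand is not stated in the labels. The shared probe set of Hoxb8 and Hoxb7 read 6.23 ± 0.28 (SD, n = 3) in MEF, 5.63 ± 0.37 (n = 5) under DOX and 5.26 ± 0.21 (n = 4) in the pluripotent lines. The clusters also hold microRNA genes of the miR-10 and miR-196 families, whose mature forms, known to act on Hox transcripts, are shown from RefSeq because paralogues in different clusters share a seed (bases 2 to 8, in capitals).
miR-10a-5p: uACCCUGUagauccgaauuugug
miR-10b-5p: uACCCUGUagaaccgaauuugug
miR-196a-5p: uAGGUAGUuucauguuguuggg
miR-196b-5p: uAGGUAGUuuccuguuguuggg

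The arrays probe the hairpin genes and not these mature forms. Probe sets of Mir10a (3.72 to 4.31), Mir10b (3.57 to 4.03), Mir196a-2 (4.12 to 4.53) and Mir196b (4.48 to 5.08) were below background on all 12 arrays, so that only an upper limit holds for them, and Mir196a-1 lay on both sides of it (4.82 to 5.79). Mir615, inside the Hoxc cluster, was above background throughout and fell from 7.62 ± 0.04 (SD, n = 3) in MEF to 7.26 ± 0.12 (n = 4) in the pluripotent lines, a difference of -0.36 ± 0.09 (adjusted p = 0.013).

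Hox proteins bind DNA with TALE homeodomain partners of the Pbx, Meis and Pknox families, and 3 of 8 measured partners fell and 2 rose in the pluripotent lines, where 20.9% of all genes fell and 20.6% rose. Meis1 fell by 2.98 ± 0.20 (adjusted p = 7.3e-05), Pbx3 by 1.92 ± 0.12 (adjusted p = 5.6e-05) and Meis3 by 1.14 ± 0.13 (adjusted p = 0.00048). Pbx4 rose by 0.99 and Pknox1 by 0.38. The list median was -0.66, and under DOX Pbx4 alone was called, higher, as were 3.66% of all genes. Of 11 upstream regulators of the axial code, 3 fell and 1 rose, shares not far from the 20.9% and 20.6% of all genes: Gdf11, a ligand that switches on posterior Hox genes, fell by 1.61 ± 0.22 (adjusted p = 0.0011) and Cyp26b1, which degrades retinoic acid, by 1.08 ± 0.23 (adjusted p = 0.0085). Rarb, a retinoic acid receptor, fell by 0.85 and Cdx1, a driver of trunk Hox genes, rose by 0.81. Gdf11 was also called lower under DOX, by a difference of -1.46 (adjusted p = 0.047).

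Homeobox genes outside the clusters did not move as one list. Of 12 ParaHox and dispersed Hox-like genes, 2 fell and 2 rose in the pluripotent lines, near the 20.9% and 20.6% of all genes. Their median was -0.02. Under DOX 0 were called, where 4.74% of all genes were lower and 3.66% higher. Meox2, a gene of somites and limb muscle, was below background on all 4 pluripotent arrays and at least 12.8-fold lower (adjusted p = 0.00011), and En1 fell by 1.55 ± 0.38 (adjusted p = 0.015). Gbx2, active in ESC, rose by 1.88 ± 0.15 (adjusted p = 0.00014) and En2 by 1.43 ± 0.32 (adjusted p = 0.0095). Evx1 and Evx2, which sit at the ends of the Hoxa and Hoxd clusters, were not called, with Evx1 at 4.76 to 5.13 over all arrays.

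Regional transcription factors of mesenchyme were mostly lower as well. Of 24 measured, 19 fell and 0 rose in the pluripotent lines, against 20.9% and 20.6% of all genes, with a median of -1.79. Tbx15 was 20.5-fold lower, Prrx1, a limb mesenchyme gene, 15.2-fold, Twist2 13.2-fold, Lhx9 11.2-fold and Prrx2 9.07-fold, and Tbx5, the forelimb gene, which was below background on all 4 pluripotent arrays, at least 6.85-fold, all with adjusted p-values between 7.9e-05 and 0.0039. Under DOX 6 were lower, against 4.74% of all genes, namely Tbx5, Shox2, Twist2, Foxf2, Dlx5 and Lhx9. Tbx5 read 7.46 in WT MEF, 5.97, 5.23 and 5.32 at WT days 4, 8 and 11, 8.06 in flox/- MEF and 4.88 and 4.62 at flox/- days 4 and 8, so that the flox/- cells were below background by day 4. This list was chosen with results of these samples known.

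Few genes next to the clusters fell. Of the 21 measured genes among the 3 nearest protein-coding neighbours on each side, 2 were lower and 7 higher in the pluripotent lines. Among all genes 20.9% were lower and 20.6% higher. The median of the neighbours was 0.26. Calcoco2, an autophagy receptor beside Hoxb, was 6.79-fold higher (adjusted p = 0.0018), Ttll6 3.17-fold and Cbx1, a heterochromatin protein, 1.98-fold. Mtx2, a mitochondrial gene beside Hoxd, read 10.21 ± 0.13 (SD, n = 3) in MEF and 10.18 ± 0.21 (n = 4) in the pluripotent lines. Under DOX 1 neighbour was called, Atp5g2, higher, as were 3.66% of all genes.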

How the data were processed

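RNA was extracted by the authors with TRIzol and labelled with biotin per the labels' protocols, which name a 3′ IVT kit, whereas the probe annotation is that of a whole-transcript gene array. The values deposited by the authors are log2 signals (3.11 to 13.99) of 35512 probe sets; how they were summarised and normalized is not given in the sources used here. Array medians differed by 0.122, over the limit of 0.1, so the values were quantile normalized; 0 columns were left unused. Probe sets with 1 symbol (21789) gave 19938 genes, the brightest one per gene, with no filter on dim genes; arrays carry no counting depth, and their number limits the precision. RefSeq sequences and positions are of GRCm38.p6.

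Differences were tested with limma 3.58.1 in R 4.3.3 (data.table, version 1.17.8), 1 fit per comparison, Benjamini-Hochberg adjusted over all genes and called under 0.05; the script was tested on simulated data. Where a whole group was at or below the background level, a bound replaced the fold. Members and lists were chosen with earlier results of these data known. Values on each array are given for the members with the 12 highest MEF means and for those called under DOX or between genotypes; at most 6 genes of a list are named by size of change, and any other gene or member named singly was chosen after its values were seen. The alternatives were the deposited values, a filter at the array median, the mean of probe sets, an intensity trend with robust fit, no earlier-series arrays, 1 fit over 12 arrays, genotype as a block, other fold limits and each array left out.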

Additional observations from a re-analysis of the deposited data

Results flagged for a closer look

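On 32 sets of values (16 named Hox genes, in the DOX and the pluripotent group), 3 had an array far from the others by Dixon's criterion. Its rate of about 1 in 20 sets holds for replicates of a single population, whereas these groups mix genotypes and days or cell lines. Hoxc12 and Hoxc13 were also singled out after their values were seen, so no excess over chance can be read from this count. At flox/- day 8 Hoxc12 read 8.59, with the nearest DOX array at 5.14, and Hoxc13 read 7.16, with the nearest at 5.36. In the pluripotent group Hoxb9 read 6.25 in WT iPSC, with the nearest line at 6.92. Hoxa9 moved in opposite directions between day 4 and day 8: it rose by 1.03 in WT cells and changed by -1.91 in flox/- cells, with 1 array on each side, and this difference was not tested.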

How the results depend on the processing

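The pluripotent minus MEF counts held: 30 to 31 members lower in every alternative except the filter at the array median (23 of the 25 members that passed), and 2 higher in all. The 6 members lower under DOX became 12 in 1 fit over 12 arrays (17.6% of all genes called) and 1 with genotype as a block (2.98%). With single arrays left out they ranged from 1 to 7 (0.481% to 15%). The 1 member lower at day 4 became 0 on the deposited values (1.55%) and 4 in 1 fit over 12 arrays (5.88%). With genotype as a block or without any 1 MEF array it was 0 (0%). The 0 members called between pluripotent and DOX arrays ranged from 0 to 9, the 9 without flox/- day 8. The DOX minus MEF difference of Hoxc12, 0.12, ranged from -0.58 to 0.33 with single arrays left out and was -0.58 (adjusted p = 0.035) without flox/- day 8, where all DOX arrays left were below background and only a bound of at least 1.38-fold lower holds. At 1.5-fold and 4-fold in place of 2-fold, the members lower numbered 15 and 0 from WT MEF to day 4, 9 and 0 from WT day 11 to iPSC, 15 and 1 from flox/- MEF to day 4, and 16 and 0 from WT day 8 to day 11; at 4-fold they numbered 4 from WT day 4 to day 11, 4 from flox/- day 4 to day 8 and 0 from WT day 4 to day 8. Between MEF arrays the members apart numbered 17 and 0 (WT and flox/-), 16 and 1 (WT and -/-) and 7 and 0 (flox/- and -/-). With background at the 99th percentile, 4 members were above it in all DOX and 5 in all pluripotent arrays. The shares of the MEF to iPSC distance moved by under 1.5 times with members at least 4-fold lower (at flox/- day 4 to 49.0%) or with those lower in both genotypes, settings chosen after seeing the data. The cause of each change was not tested. No paired analysis was possible because the labels give no replicate numbers; stage or genotype, which the labels do give, stood as blocks. Signals close to background limit the size of any fall that can be measured.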
